A study of Mus musculus with 12 samples.

Results

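Chromatin accessibility was compared between mouse cortical neurons that received α-synuclein fibrils together with an inhibitor of the kinase LRRK2 and neurons that received neither. The comparison asked what still differed from control cultures when LRRK2 was inhibited during exposure to fibrils. It used 6 of the 12 ATAC-seq libraries of the study, namely 3 of the PFF+MLi-2 group and 3 of the PBS group. ATAC-seq maps open chromatin with the transposase Tn5, which inserts adapters where DNA is accessible. Every culture came from the cortex of wild-type C57BL/6 embryos at embryonic day 18. PBS cultures received buffer for 7 days, and the study's methods name DMSO as the vehicle of the inhibitor in control cultures. PFF+MLi-2 cultures received pre-formed fibrils of human α-synuclein for 7 days, with the inhibitor MLi-2 during the last 5 of them. PFF is the treatment in the titles and treatment labels of the PFF+MLi-2 libraries and was used here, although their longer descriptions mention PBS at that point. No culture given PBS and MLi-2 was analysed here, so effects of the fibrils and of the inhibitor cannot be told apart in this comparison. The labels call the samples biological replicates of 1 batch. The study's methods count each pregnancy as an independent replicate and assign its cultures to groups at random, and the labels do not tie a library to a pregnancy.

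Peaks of the 6 libraries that overlapped by at least 1 bp were merged into 214234 regions. A region was termed gained when it held a peak in 3 of 3 PFF+MLi-2 libraries and 0 of 3 PBS libraries, and lost in the reverse case. By this rule 486 regions were gained, 1212 were lost and 82935, termed shared, held a peak in each of the 6 libraries. The height of a peak was expressed as its percentile, which is the rank of its fold enrichment among all peaks of the same library on a scale from 0 to 100. The number of sequenced tags under the summit was recovered from the peak statistics.

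LRRK2 is a kinase mutated in familial Parkinson's disease that phosphorylates Rab GTPases on the membranes of endosomes and lysosomes. Rab5 and Rab7 mark early and late endosomes, and the lysosome is where α-synuclein aggregates taken up by neurons are delivered for degradation. Lysosomal genes are controlled by TFEB and TFE3, which bind the E-box CACGTG and whose entry into the nucleus is restrained by the kinase complex mTORC1. Open chromatin in neurons marks active promoters and distal enhancers, and enhancers are the more variable of these between states of the cell.

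The DNA under the leading regions is printed here so that the peaks discussed later can be read as sequence. They are the 3 gained regions of greatest height, 3 of the 4 lost regions of greatest height (the Rttn intron described later is not printed) and regions with the strongest statistics for a higher or a lower rank in PFF+MLi-2. Each run is 201 bases of the forward strand of GRCm38, from 100 bases before to 100 bases after the summit, taken from the RefSeq copy of that assembly. Capitals mark matches on either strand to any of 11 short motifs, which may overlap each other, and a run with no match is wholly in lower case.
Gained, intron of Dnajc6, chr4:101620305-101620505: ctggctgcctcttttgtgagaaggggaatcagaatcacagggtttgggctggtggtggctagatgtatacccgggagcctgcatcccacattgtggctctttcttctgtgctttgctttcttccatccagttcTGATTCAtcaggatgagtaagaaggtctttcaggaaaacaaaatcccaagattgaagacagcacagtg
Gained, intron of B530045E10Rik, chr10:99396647-99396847: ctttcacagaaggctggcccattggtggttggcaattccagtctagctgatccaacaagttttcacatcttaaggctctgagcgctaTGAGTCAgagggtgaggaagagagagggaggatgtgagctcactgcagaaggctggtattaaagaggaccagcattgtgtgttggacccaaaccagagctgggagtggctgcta
Gained, intergenic near Rnft1, chr11:86457718-86457918: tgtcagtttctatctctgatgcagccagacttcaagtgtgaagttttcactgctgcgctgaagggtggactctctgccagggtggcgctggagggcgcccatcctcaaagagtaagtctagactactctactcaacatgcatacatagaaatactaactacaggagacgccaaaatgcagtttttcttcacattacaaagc
Lost, far intergenic, chr14:71506269-71506469: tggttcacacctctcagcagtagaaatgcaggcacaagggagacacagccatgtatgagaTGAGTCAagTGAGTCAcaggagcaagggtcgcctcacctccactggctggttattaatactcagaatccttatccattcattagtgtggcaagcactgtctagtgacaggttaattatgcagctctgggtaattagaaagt
Lost, intron of Frmd4b, chr6:97302492-97302692: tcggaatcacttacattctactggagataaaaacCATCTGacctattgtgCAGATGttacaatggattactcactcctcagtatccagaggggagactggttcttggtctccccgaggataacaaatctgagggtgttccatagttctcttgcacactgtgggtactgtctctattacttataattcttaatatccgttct
Lost, intron of Gm48893, chr10:26711153-26711353: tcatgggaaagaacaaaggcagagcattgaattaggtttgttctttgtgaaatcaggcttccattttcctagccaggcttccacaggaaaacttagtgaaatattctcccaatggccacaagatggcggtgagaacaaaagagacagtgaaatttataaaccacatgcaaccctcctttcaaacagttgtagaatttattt
Higher rank, far intergenic, chr11:17352189-17352389: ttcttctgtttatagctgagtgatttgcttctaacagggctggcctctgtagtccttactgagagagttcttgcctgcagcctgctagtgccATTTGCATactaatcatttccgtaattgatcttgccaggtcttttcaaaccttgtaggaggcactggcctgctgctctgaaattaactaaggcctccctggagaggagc
Higher rank, intron of D030028A08Rik, chr11:96946562-96946762: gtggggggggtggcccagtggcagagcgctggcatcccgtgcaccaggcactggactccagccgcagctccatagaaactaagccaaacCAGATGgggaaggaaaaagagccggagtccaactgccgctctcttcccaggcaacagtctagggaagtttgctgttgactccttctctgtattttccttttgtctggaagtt
Lower rank, intron of Gm31508, chr12:28979753-28979953: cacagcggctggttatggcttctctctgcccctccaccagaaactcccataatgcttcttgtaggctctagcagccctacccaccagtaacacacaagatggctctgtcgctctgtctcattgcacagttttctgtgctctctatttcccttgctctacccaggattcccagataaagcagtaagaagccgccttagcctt
Lower rank, upstream of Wnt10b, chr15:98780652-98780852: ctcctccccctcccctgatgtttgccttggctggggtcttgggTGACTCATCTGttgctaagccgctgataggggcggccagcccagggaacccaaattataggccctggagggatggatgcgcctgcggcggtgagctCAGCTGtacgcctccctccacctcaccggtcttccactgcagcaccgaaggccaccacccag

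Of these 10 windows, 7 held a match. The AP-1 motif TGANTCA occurred in the Dnajc6 and B530045E10Rik windows, the far intergenic lost window and the Wnt10b window. The E-box CAGATG of proneural factors such as NeuroD occurred in the Frmd4b, D030028A08Rik and Wnt10b windows. The octamer ATGCAAAT of POU factors occurred in the far intergenic window of higher rank. These matches describe the letters present and were not tested as binding sites.

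The 6 libraries had similar lists, with the exception of PBS replicate 1. It held 180875 peaks, whereas PBS replicates 2 and 3 held 137299 and 152058. The 3 PFF+MLi-2 libraries held 145902, 147867 and 145384 peaks. The mean was 146384 ± 1310 (SD, n = 3) in PFF+MLi-2 and 156744 ± 22163 (SD, n = 3) in PBS, and the groups overlapped (exact permutation test, two-sided, p = 0.7). Relative depth, in units of the average of all 12 libraries, was 0.999 ± 0.0373 in PFF+MLi-2 and 0.939 ± 0.0333 in PBS (exact permutation test, two-sided, n = 3 per group, p = 0.2). The share of peaks at promoters, defined as a summit within 1000 bp of a transcription start site, was 24.9% ± 0.422 in PFF+MLi-2 and 23.8% ± 2.03 in PBS (exact permutation test, two-sided, n = 3 per group, p = 0.6). Covered length and median peak width gave p = 0.7 and p = 0.6 in the same exact test. All 5 adjusted values were 0.7, and the smallest p that 3 libraries against 3 allow is 0.1. The median summit held 17 or 18 tags in each of the 6 libraries.

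**Figure D1:**
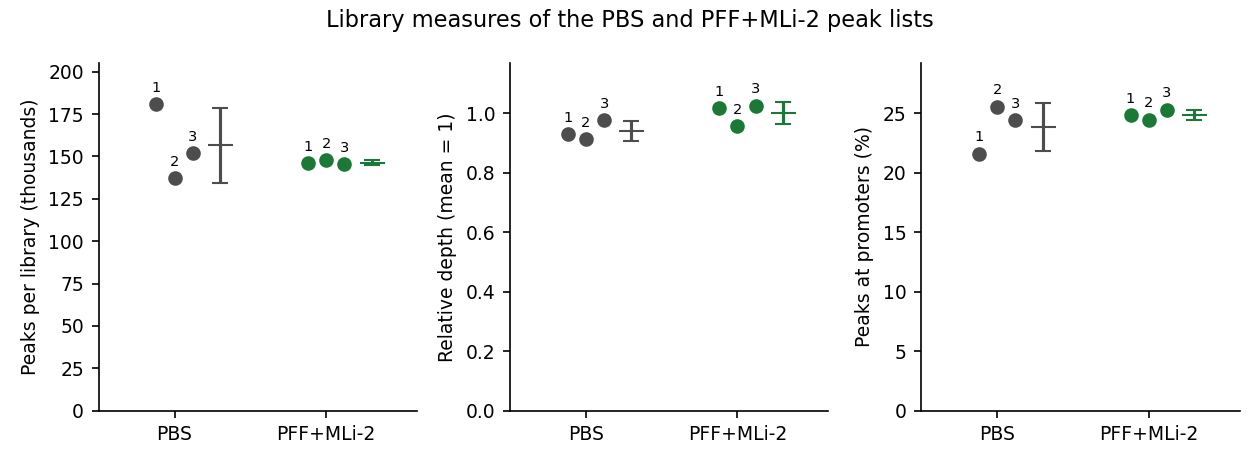
Points show each PBS and PFF+MLi-2 library (numbered by replicate) for peaks per library (axis in units of 1000), relative depth (1 is the average of the 12 libraries), and the percentage of peaks at promoters. Bars beside them give the mean and SD of 3 libraries. PBS replicate 1 stands apart with 180875 peaks and the lowest promoter share.

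Few regions separated the groups completely. The 486 gained regions were 0.227% of all regions and the 1212 lost regions were 0.566%. These shares are the background against which the genes below are read. In contrast, 38711 regions held a peak in a single PBS library and in no PFF+MLi-2 library, and 21943 held a peak in a single PFF+MLi-2 library and in no PBS library. The excess of lost over gained regions did not hold without PBS replicate 1, the longest list. Without that library, when a group of 2 PBS libraries was compared with 3, 2096 regions were gained and 1967 were lost. When every library was limited to its 137299 highest peaks, 778 regions were gained and 859 were lost.

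The gained and lost regions were low peaks. The median of their mean percentile was 27.1 for gained regions and 30.5 for lost regions, against 37.8 over all regions and 69.4 for shared regions. Only 13 of the 486 gained and 57 of the 1212 lost regions had a mean percentile above 50. In tags, the median summit was 13 in gained regions, 12.3 in lost regions and 22.7 in shared regions. A summit of 13 tags has an exact 95% Poisson interval of 6.92 to 22.2 tags, which covers counting error only. The smallest summits called over the usual background held 8 or 9 tags, so the tag count of a peak of this size in a library without a call cannot be told from the peak lists. Regions just outside the rule were much alike. Those with a peak in 2 of 3 PFF+MLi-2 and 0 of 3 PBS libraries numbered 2955, with a median percentile of 24.2. Those with a peak in 3 of 3 and 1 of 3 numbered 2334, with a median percentile of 32.5. On the lost side, the same neighbours numbered 6764 and 3517, with median percentiles of 27.8 and 33.96. Gained and lost regions had median widths of 123 and 134 bp against 149 bp for all regions and 287 bp for shared regions, which merge peaks of 6 libraries.

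**Figure D2:**
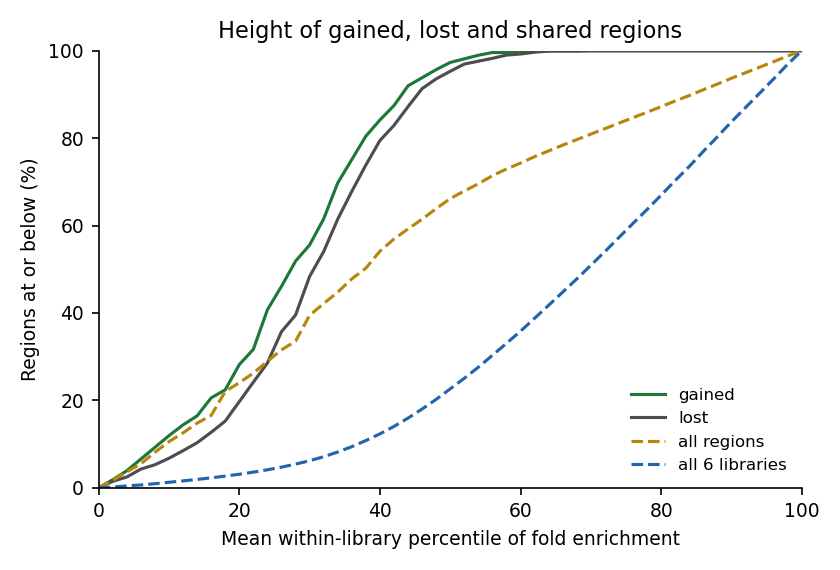
Cumulative percentage of regions (vertical axis) at or below a mean within-library percentile of fold enrichment (horizontal axis) for gained, lost, all and shared regions. The curves of gained and lost regions lie to the left, with medians of 27.1 and 30.5, and shared regions have a median of 69.4.

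The highest gained region lay in an intron of Dnajc6 (chr4:101620343-101620490), which encodes auxilin, the protein that strips clathrin from endocytic vesicles and is mutated in juvenile parkinsonism. Its percentiles in the PFF+MLi-2 libraries were 52.5, 51.5 and 77.2, from 15, 14 and 21 tags. It had no peak in the PBS libraries and a peak in 2 of 3 libraries given fibrils alone (PFF). A lost region lay in an intron of the same gene, at chr4:101604167-101604311, with PBS percentiles of 17.9, 40.5 and 17.6. The next gained regions were in an intron of the non-coding gene B530045E10Rik (chr10:99396691-99396844; 54.6, 48.4 and 78.0) and between genes, where Rnft1 is the nearest protein-coding gene (chr11:86457659-86457845; 48.0, 55.4 and 62.2). A far intergenic region on chromosome 2 (chr2:171668924-171669103) had the same percentiles as the Rnft1 region. Both intergenic regions held a peak in 3 of 3 PFF libraries and in 3 of 3 libraries given fibrils and an antisense oligonucleotide against Rab5 (PFF+Rab5 ASO), so PBS was the only group of the 4 without one.

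Further introns on this list belonged to 5 genes. Ankib1, a ubiquitin ligase, held a gained region at chr5:3784409-3784570 with percentiles of 48.0, 66.0 and 49.8. Cadps, which primes dense-core vesicles for release, held one at chr14:12393558-12393691 with 36.4, 71.4 and 52.6. Nalcn, the sodium leak channel that sets the resting potential, held one at chr14:123354832-123355027 with 39.9, 39.6 and 74.8. Rora, a nuclear receptor, held one at chr9:68993956-68994050 with 60.3, 48.4 and 49.8, and this region had no peak in any PFF library. The non-coding gene Gm31458 held one at chr15:28067521-28067618 with 54.6, 48.4 and 56.6. One of the 10 lay at a promoter, that of Fermt1, which encodes the integrin activator kindlin-1 (chr2:132945503-132945679). Its percentiles were 54.6, 55.4 and 49.8, from 15, 14 and 14 tags, and its summit was 1 bp from the start site. The percentiles of a region varied widely between its 3 libraries, as at Nalcn and Cadps, while the tag counts of all 10 ran from 12 to 21.

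The highest lost region was far intergenic (chr14:71506305-71506497), with PBS percentiles of 76.0, 56.2 and 71.9 from 19, 14 and 17 tags. It held a peak in every PFF and every PFF+Rab5 ASO library, so PFF+MLi-2 was the only group without one. The intronic region of Frmd4b, a membrane scaffold gene (chr6:97302473-97302643), had 65.2, 71.0 and 55.3. That of Rttn, a centriole gene (chr18:89076383-89076509), had 72.9, 66.8 and 49.8. All of the 10 lost regions of greatest height had percentiles near or above 50 in every PBS library, except the one near Phlda1. Gm48893 (chr10:26711215-26711350) had 60.4, 71.0 and 56.9, and the region near Phlda1 (chr10:111527063-111527268) had 72.9, 40.5 and 71.9. Plxna2, a semaphorin receptor, held a lost intronic region at chr1:194753283-194753445 with 58.6, 62.0 and 62.8. Insr, the insulin receptor, held one at chr8:3231202-3231364 with 52.9, 66.8 and 62.8, and it had a peak in 3 of 3 PFF and 0 of 3 PFF+Rab5 ASO libraries. The Insr region was the only one of the 10 with this pattern in the other groups. Gm20685 (chr6:6488279-6488469) had 76.0, 49.3 and 56.9. Hibadh, an enzyme of valine breakdown (chr6:52577443-52577553), had 65.2, 49.3 and 67.7. The promoter of the pseudogene Gpr137b-ps (chr13:12650756-12650849) had 54.8, 56.2 and 67.7. The tags behind these 10 regions ran from 12 to 19.

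Gained and lost regions were scattered over many genes. Regions were linked to the gene whose promoter or body they lay in, or else to the nearest protein-coding gene within 50000 bp. A gained region was linked to 413 genes and a lost region to 1008 of 24496 genes, and 57 genes had both. Only 16 genes had more than 1 gained region and 67 had more than 1 lost region. The most gained regions were at Asap2, a GTPase-activating protein of Arf (3 of 34 linked regions), and Tbc1d22a, a protein with a Rab GTPase-activating domain (3 of 81). They were followed by the small heat shock gene Hspb8 (2 of 11), 1700020N01Rik (2 of 22) and St8sia2, a polysialic acid transferase (2 of 31). Further genes, such as Epb41l1 (2 of 40), also had 2, and ties were ordered by the fewest linked regions. The most lost regions were at Mpdz, a scaffold with many PDZ domains (4 of 53). Hibadh (3 of 18), Cux1, a homeobox factor of upper cortical layers (3 of 54), Phlpp1, a phosphatase of Akt (3 of 57), and Opcml, an adhesion molecule (3 of 149), followed. Cdh4 (3 of 152) was tied with these. No gene had more than 4 of either kind.

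Both kinds of region lay mostly away from promoters. Promoters held 62 of 486 gained regions (12.8%, Wilson 95% interval 10.1 to 16.0%) and 179 of 1212 lost regions (14.8%, 12.9 to 16.9%). They held 18.7% of all regions and 26.6% of shared regions. Introns held 45.5% of gained and 45.2% of lost regions, against 42.5% of all regions. The median distance to a start site was 14800 bp for gained and 13176 bp for lost regions, against 10993 bp for all regions and 8030 bp for shared regions. Counted the other way, 0.155% of promoter regions were gained and 0.446% were lost, and 0.243% and 0.602% of intronic regions. Across chromosomes, the X chromosome had 41 lost regions of 3935 (1.04%) and 8 gained regions (0.203%).

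The short motifs were counted within 100 bp of each summit, on both strands. The E-box CACGTG of TFEB and TFE3 was in 8 of 486 gained windows (1.65%, Wilson 95% interval 0.836 to 3.21%) and 34 of 1212 lost windows (2.81%, 2.01 to 3.89%). It was in 3.56% of all windows and in 4.19% of shared ones. The AP-1 motif TGANTCA, bound by Fos and Jun, was in 71 gained windows (14.6%, 11.7 to 18.0%) and 135 lost windows (11.1%, 9.49 to 13.03%), against 11.02% of all windows. The E-box CAGCTG was in 12.8% of gained and 19.4% of lost windows, against 17.3% of all, and CAGATG in 20.6% and 24.8%, against 22.2%. The GC box GGGCGGG of Sp factors was in 4.32% of gained and 3.96% of lost windows, against 6.62% of all and 11.8% of shared windows. The CRE TGACGTCA was in 0.206% of gained and 0.330% of lost windows, against 0.445% of all. ATGCAAAT was in 1.23% and 1.16%, against 1.75%, and the RFX motif TTGCCATGG in 1.03% and 1.16%, against 1.24%. The part of the CTCF motif AGGGGGC was in 4.53% and 4.37%, against 5.22%. The ETS motif CCGGAAGT was in 0 gained windows and 1 lost window, and the EGR motif GCGTGGGCG in none of either. These were rare everywhere, at 0.598% and 0.165% of all windows.

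The 6 remaining libraries of the study show how these regions behaved in other cultures given fibrils. These libraries did not enter the choice of regions, although the absence of a peak in PBS or in PFF+MLi-2 did, so the values are descriptive. Gained regions held a peak in 59.3%, 55.8% and 46.7% of cases in the 3 PFF libraries, and in 48.1%, 39.1% and 32.3% in the 3 PFF+Rab5 ASO libraries. Lost regions held a peak in 63.8%, 60.6% and 49.3% of cases in the PFF libraries and in 62.8%, 56.1% and 49.9% in the PFF+Rab5 ASO libraries. In each of these libraries lost regions, chosen for their absence from PFF+MLi-2, were called more often than gained regions. A peak in all 6 of these libraries was found for 41 gained regions (8.44%) and 149 lost regions (12.3%). A peak in none of them was found for 51 gained regions (10.5%) and 67 lost regions (5.53%). Over all regions these shares were 40.5% in all 6 and 15.4% in none. A peak in 3 of 3 PFF libraries was found for 26.1% of gained, 29.5% of lost and 49.7% of all regions. The relative depth of these libraries ran from 0.775 to 1.31, and its part in the shares was not tested.

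Examples of each pattern follow, ordered by height. Gained regions called in every fibril library, and so absent only from PBS, included the Rnft1 and chromosome 2 regions given above, an exon of Col28a1, a collagen gene (chr6:8176289-8176378; mean percentile 47.2 in PFF+MLi-2), and the promoter of Apol7a, an apolipoprotein L gene (chr15:77397444-77397599; 42.3). Gained regions called in PFF+MLi-2 alone included introns of Khdrbs2, a splicing factor (chr1:32272401-32272555; 42.8), Serinc5 (chr13:92653520-92653614; 41.4), Prex2, an exchange factor for Rac (chr1:11066327-11066463; 39.4), and Robo1, an axon guidance receptor (chr16:72610796-72610927; 36.1). Lost regions called in no fibril library included one far from Robo2 (chr16:74500820-74501068; mean percentile 49.98 in PBS) and the promoter of Phlpp1 (chr1:106317882-106318019; 43.3). Lost regions called in every PFF and PFF+Rab5 ASO library included the Plxna2 intron given above and the promoter of the microRNA gene Mir1251 (chr10:92137844-92138073; 54.7). All of these patterns occurred, and none held a large share of the gained or lost regions.

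**Figure D3:**
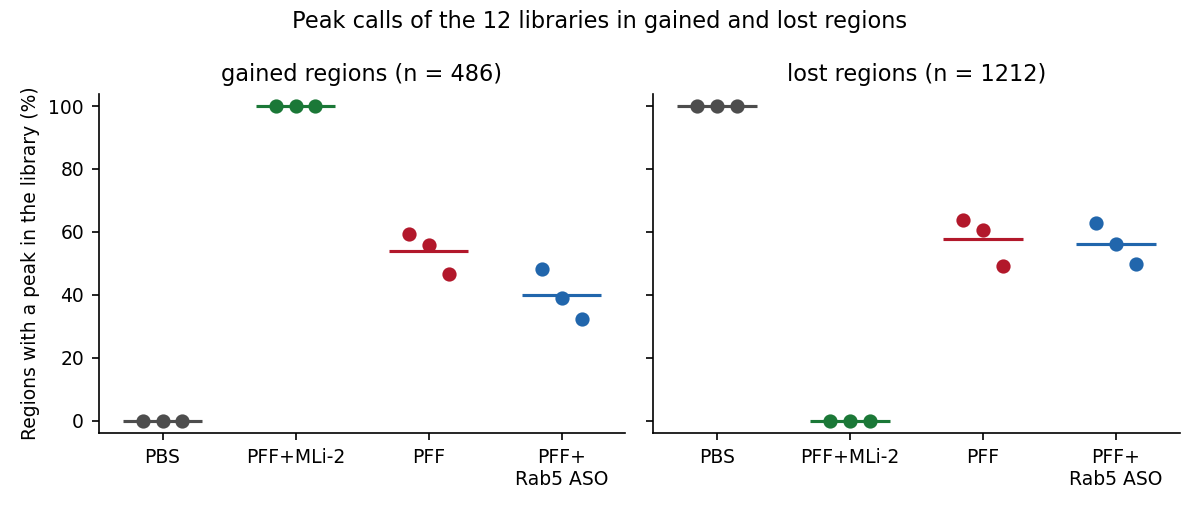
Percentage of the 486 gained (left) and 1212 lost (right) regions that held a peak in each of the 12 libraries, with a line at the mean of each group of 3. PBS and PFF+MLi-2 are at 0 or 100% by the rule, and the other libraries lie between 32.3 and 63.8%.

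Peak height was tested over the 82935 shared regions. Ranks of fold enrichment were turned into normal scores within each library, and the height effect is the difference in mean score, PFF+MLi-2 minus PBS, in SD of the score. No region passed an adjusted p of 0.05 (limma with Benjamini-Hochberg adjustment, 0 of 82935 regions, 0%), and the smallest adjusted p was 0.836. At an unadjusted p under 0.05 there were 4792 regions (5.78%), of which 2343 ranked higher in PFF+MLi-2 (2.83%) and 2449 ranked lower (2.95%). The 3 libraries of each group did not overlap in 8582 regions (10.3%). With group labels set at random, the expected share equals 0.1, the smallest p of a two-sided exact permutation test of 3 against 3. The median standard error of an effect was 0.254, and the median 95% interval reached 0.57 to either side. The middle 95% of all effects ran from -0.65 to 0.65, and 433 regions (0.522%) had an effect beyond 1 in either direction. Scores of this comparison were simulated with 82935 regions, of which 200 were shifted. After adjustment a shift of 2 was recovered in 56.5% of shifted regions and a shift of 1 in 0%. A shift of 1 SD limited to so few regions was therefore not detectable with 3 libraries per group, and shifts in more regions were not simulated. Libraries of different groups were about as similar as libraries of the same group. Pearson's r of the scores across regions, which are not independent replicates, was 0.850 to 0.860 within PBS, 0.857 to 0.865 within PFF+MLi-2 and 0.848 to 0.870 between the groups.

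**Figure D4:**
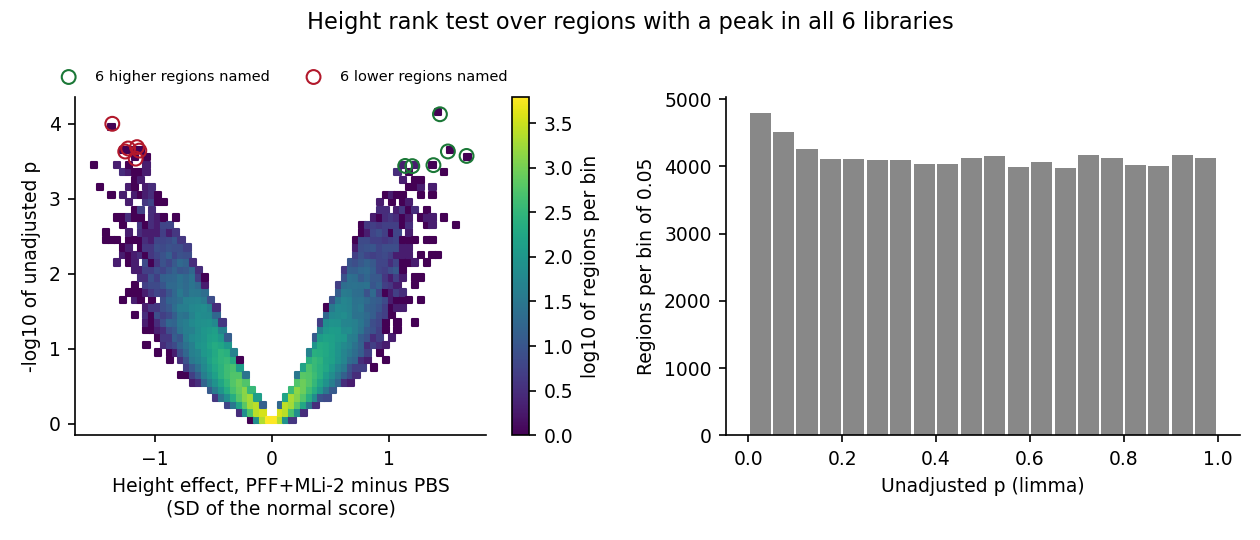
Left, height effect of PFF+MLi-2 minus PBS in SD of the normal score against -log10 of the unadjusted limma p for 82935 regions in bins, with the 6 named regions in each direction circled. Right, regions per bin of unadjusted p, from 4792 in the lowest bin to between 3969 and 4517 in the others.

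The region with the highest statistic was far intergenic, 88668 bp from C1d (chr11:17352207-17352441). Its percentiles were 29.3, 29.8 and 29.9 in PBS and 76.2, 73.9 and 67.1 in PFF+MLi-2, from 11 tags in each PBS library and 20, 18 and 17 in PFF+MLi-2. The effect was 1.44 ± 0.21 (SE) with an unadjusted p of 7.51e-05 and an adjusted p of 0.836 (limma), and the groups did not overlap. The intronic region of the non-coding gene D030028A08Rik (chr11:96946481-96946782) had 3.78, 3.07 and 13.9 in PBS and 42.3, 51.2 and 59.1 in PFF+MLi-2. Its tags were 18, 17 and 22 in PBS and 26, 27 and 32 in PFF+MLi-2. The region near Slc35e3 (chr10:117731340-117731519) had 17.9, 40.5 and 41.0 in PBS and 85.9, 79.9 and 74.1 in PFF+MLi-2. Of its 201-base window 80.1% was soft-masked as repeat, and its PFF percentiles were 73.7, 77.4 and 72.2, above every PBS value. An intron of Wwtr1, which encodes the Hippo coactivator TAZ (chr3:57493245-57493377), had 29.3, 7.71 and 29.9 in PBS and 69.3, 55.4 and 67.1 in PFF+MLi-2. The promoter of Adgrg1, an adhesion receptor of cortical development (chr8:94995422-94995620), had 0.967, 0.427 and 1.601 in PBS and 14.0, 12.2 and 17.7 in PFF+MLi-2. Its tags were 26, 23 and 26 in PBS and 33, 32 and 37 in PFF+MLi-2, all above the median summit of the libraries. Fold enrichment is relative to background, so these low percentiles do not mean few tags. The region near Xpo6, an exporter of actin from the nucleus (chr7:126214859-126215113), had 23.4, 17.9 and 10.6 in PBS and 45.99, 59.9 and 59.5 in PFF+MLi-2. All 6 had an adjusted p of 0.836.

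Regions at the other end had their high values in PBS. An intronic region of Gm31508 (chr12:28979790-28979974) had 71.5, 57.8 and 65.6 in PBS and 24.1, 19.6 and 10.3 in PFF+MLi-2, from 19, 15 and 17 tags and 13, 11 and 11 tags. Its effect was -1.37 ± 0.21 (SE) with an adjusted p of 0.836 (limma). The region at -2602 bp from the start site of Wnt10b, a Wnt ligand gene (chr15:98780623-98780872), had 71.0, 64.4 and 66.3 in PBS and 27.7, 22.6 and 28.2 in PFF+MLi-2. Near Plod2, a collagen lysyl hydroxylase (chr9:92611001-92611113), the values were 81.3, 66.8 and 71.9 against 39.9, 28.7 and 31.7. Near Slc4a3, an anion exchanger (chr1:75589005-75589204), they were 68.4, 65.1 and 64.4 against 26.9, 24.3 and 24.5. The promoter of the antisense gene 9530036O11Rik (chr5:28458022-28458320) lies inside Shh, the Sonic hedgehog ligand gene, and had 71.5, 54.3 and 59.2 against 15.4, 11.4 and 24.6. The promoter of Ankrd33b (chr15:31367477-31367751) had 64.0, 46.6 and 45.7 against 9.97, 13.9 and 8.37. All 6 had an adjusted p of 0.836, and in none did the groups overlap, which their choice by the test statistic fixes.

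The same 12 regions can be set beside the PFF libraries, which did not enter the test. At Ankrd33b the PFF percentiles were 62.7, 65.3 and 61.2, near or above those of PBS. At Gm31508 they were 76.1, 82.2 and 86.6, above all PBS values, and at Slc4a3 they were 69.0, 76.1 and 59.7. At Adgrg1 they were 0.968, 5.96 and 1.13, and at Wwtr1 a single PFF library had a peak, at 18.5. At Xpo6 they were 72.2, 82.2 and 36.6, and 2 of the 3 lay above every PFF+MLi-2 value. The regions therefore differed in whether PFF values lay nearer to PBS or to PFF+MLi-2. The difference between PFF and PFF+MLi-2 was not tested here.

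**Figure D5:**
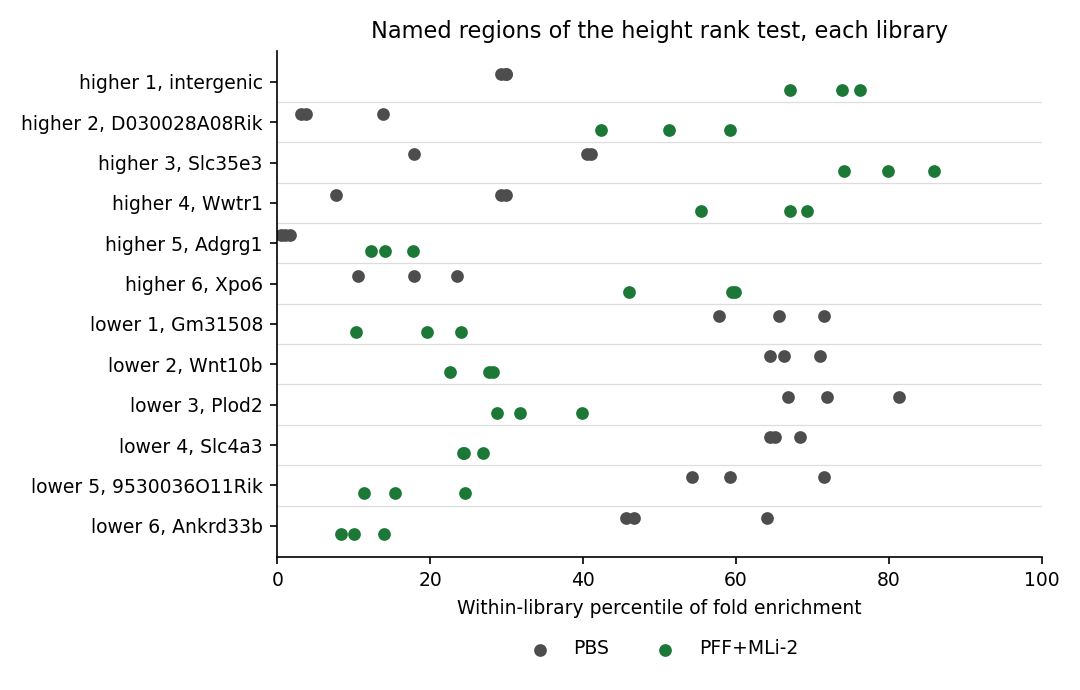
Within-library percentile of fold enrichment (horizontal axis) in each PBS and PFF+MLi-2 library for the 6 regions with the highest and the 6 with the lowest moderated t, labelled by linked gene. The 3 points of each group do not overlap in any region, which their choice fixes, and every adjusted p was 0.836.

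Median height effects by position and motif lay near 0, which ranking within each library largely fixes for the whole set. The median effect was 0.0019 over all 82935 regions, 0.0050 over 22059 promoter regions, -0.0039 over 31232 introns and 0.021 over 5695 far intergenic regions. Among regions with a motif it was -0.0054 for CACGTG (3476 regions), 0.0070 for TGANTCA (7849 regions) and -0.014 for CAGCTG (14899 regions). No region passed the test in any of these sets.

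Genes of the LRRK2 and endolysosomal pathways were examined by list. For each list, all regions linked to its genes were counted, and promoter effects were read at shared regions. A gene with several promoter regions is represented by the one with the highest mean percentile in PBS, and the highest and lowest genes of a list are named on that basis. With standard errors near the size of the effects, leaving out 1 library moved many of these values by more than 1.5 times, and sign changes are given beside them. Other promoter regions with an unadjusted p under 0.05 were looked up after the values were seen, and most are given beside them. The list of LRRK2, its Rab substrates and their effectors had 2 gained and 0 lost of 245 linked regions, and a count of 0 allows a lost share of up to 1.22%. The gained regions were in an intron of Rab7, the late endosome GTPase (chr6:88001202-88001337), with percentiles of 11.7, 42.1 and 29.1, and at -12974 bp from the start site of Rab10, a main LRRK2 substrate (chr12:3322912-3323006), with 30.2, 39.6 and 49.8. The Rab7 region had no peak in any other fibril library. At promoters of the list the median effect was -0.011 over 29 regions, against 0.0050 over all promoter regions. The Lrrk2 promoter itself was among the highest peaks of every library, at 98.2 ± 0.886 in PBS and 99.4 ± 0.220 in PFF+MLi-2 (SD, n = 3). Its effect was 0.44 ± 0.23 (SE; limma, adjusted p = 0.882), and that of Rab3c, a synaptic vesicle GTPase, was 0.28 ± 0.21 (adjusted p = 0.938). At the other end, Rab8b had -0.45 ± 0.20 (adjusted p = 0.863) and Rab5a, the early endosome GTPase, -0.13 ± 0.20 (adjusted p = 0.983).

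Lysosomal enzymes and membrane proteins had 2 gained and 1 lost of 245 linked regions. Plekhf1, which encodes a protein of endosomes and lysosomes, held a gained region at -2425 bp from its start site (chr7:38230383-38230510; 36.6, 44.9 and 68.2). Galc, the galactosylceramidase, had one nearby (chr12:97775180-97775367; 39.9, 48.4 and 21.04). Npc2, a cholesterol carrier of the lysosome, had a lost one (chr12:84752326-84752482; 14.5, 12.5 and 33.1 in PBS). Over 54 promoter regions the median effect was 0.000063, with none past an unadjusted p of 0.05. The highest promoter effects were at Plekhf1 (0.33 ± 0.20) and the protease gene Ctsc (0.31 ± 0.23), and the lowest at the thioesterase gene Ppt1 (-0.41 ± 0.24) and Cln3 (-0.36 ± 0.25), all SE from limma with adjusted p between 0.904 and 0.942. Subunits of the vacuolar proton pump had 0 gained, allowing a share of up to 2.91%, and 1 lost of 103 regions, near Atp6v1h (54.8, 29.8 and 29.9 in PBS). Their promoters ran from -0.33 ± 0.23 at Atp6ap1 and -0.26 ± 0.20 at Atp6v0e to 0.16 ± 0.30 at Atp6v1h and 0.22 ± 0.20 at Atp6v1b2, with a median of 0.020 over 29 regions. Without PBS replicate 1 the Atp6v1h effect was -0.085.

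TFEB, its relatives and lysosomal mTORC1 signalling had 0 gained, allowing up to 1.30%, and 2 lost of 230 regions. Both lost regions were in introns of Rptor, the mTORC1 scaffold (chr11:119663722-119663818 with 35.7, 25.3 and 53.0 in PBS, and chr11:119674449-119674565 with 36.6, 11.8 and 36.6). Promoter effects ran from -0.38 ± 0.24 at Lamtor5 and -0.20 ± 0.26 at Rraga, parts of the machinery that recruits mTORC1, to 0.15 ± 0.21 at Lamtor4 and 0.15 ± 0.19 at Tfe3, with a median of -0.028 over 32 regions. With 1 library left out, Rraga ran from -0.399 (without PFF+MLi-2 replicate 2) to -0.016 (without PFF+MLi-2 replicate 3) and Lamtor4 from 0.075 (without PBS replicate 2) to 0.259 (without PBS replicate 1). Early endosome effectors and retromer had 0 gained, allowing up to 1.19%, and 2 lost of 253 regions, in introns of Eea1, a tether that binds Rab5 (chr10:96036095-96036210; 45.3, 40.5 and 7.59 in PBS), and Pik3c3, the kinase that makes the lipid of early endosomes (chr18:30332545-30332677; 65.2, 17.9 and 17.6). By gene, the lowest promoter effects were at Eea1 (-0.26 ± 0.21) and the retromer gene Vps26a (-0.26 ± 0.23), and the highest at Zfyve16 (0.34 ± 0.23) and Gapvd1 (0.22 ± 0.23), with a median of 0.031 over 39 regions. A promoter region of Rin2, an exchange factor for Rab5, had 0.79 ± 0.31 (limma, unadjusted p = 0.0298, adjusted p = 0.839). Autophagy genes had 0 gained and 0 lost of 207 regions, which allows up to 1.45% for each. Gabarapl1 (-0.28 ± 0.23) and Gabarap (-0.22 ± 0.23) were the lowest by gene and Atg3 (0.32 ± 0.21) and Atg4b (0.30 ± 0.20) the highest. Another promoter region of Gabarapl1 (chr6:129534078-129534373) lay in the opposite direction, at 10.1, 6.21 and 11.004 in PBS and 32.6, 34.9 and 58.3 in PFF+MLi-2 (effect 1.09 ± 0.26, unadjusted p = 0.00198, adjusted p = 0.836, limma). No region of these lists passed an adjusted p of 0.05 (limma).

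Synucleins and other genes of parkinsonism had 1 gained and 3 lost of 289 regions. They included the gained and the lost intronic region of Dnajc6 given above. By gene, the promoter effects named were lowest at Fbxo7 (-0.35 ± 0.20) and Sncb, which encodes β-synuclein (-0.14 ± 0.20), and highest at the endosomal gene Dnajc13 (0.28 ± 0.22) and the lysosomal pump gene Atp13a2 (0.18 ± 0.20). The median over 30 promoter regions was -0.013, and 1 of them, not reported here, ranked higher at an unadjusted p under 0.05.

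Glutamate and GABA-A receptors and their scaffolds, which span long introns, had 1 gained and 8 lost of 1077 regions (0.0929% and 0.743%). The gained region was upstream of Camk2a (2.55, 0.105 and 3.42). Lost regions included those at Dlg4, Gabra2, Gria3, Gria4 and Grik2. The Gabra2 region was steady at 43.4, 40.5 and 41.0 in PBS, whereas that of Gria4 had 65.2, 29.8 and 29.9. Among 377 shared regions of the list, 4 ranked higher and 17 lower at an unadjusted p under 0.05 (limma), and 0 passed adjustment. Over all 82935 shared regions the counts were 2343 higher (2.83%) and 2449 lower (2.95%). The difference from these shares was not tested. By gene, promoters of Homer2 (0.43 ± 0.22) and Gabrb1 (0.27 ± 0.24) were the highest and those of Gabrb2 (-0.26 ± 0.25) and Grin2a (-0.25 ± 0.30) the lowest, and Grin2a had 0.041 without PBS replicate 2. A promoter region of Grik1, a kainate receptor gene, had -0.84 ± 0.22 (limma, unadjusted p = 0.00446, adjusted p = 0.836). Presynaptic release genes had 0 gained, allowing up to 0.625%, and 2 lost of 480 regions, a promoter region of Unc13a, the vesicle priming factor (0.149, 1.21 and 0.929 in PBS), and an intron of Rims2 (29.3, 49.3 and 7.59). Syt2 (0.40 ± 0.25) and Slc32a1 (0.30 ± 0.31) had the highest promoter effects by gene and Unc13a (-0.31 ± 0.23) and Stx1a (-0.21 ± 0.21) the lowest. Without PFF+MLi-2 replicate 3 the Slc32a1 effect was -0.0062. Another promoter region of Stx1a, which encodes syntaxin, had 67.5, 42.8 and 64.3 in PBS and 35.9, 10.8 and 18.7 in PFF+MLi-2 (effect -1.005 ± 0.27, limma, unadjusted p = 0.00434, adjusted p = 0.836).

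Immediate early genes of neuronal activity had 1 gained and 1 lost of 206 regions, at the promoter of Egr3 (0.960, 1.61 and 1.30) and in an intron of Nr4a2 (12.02, 14.4 and 1.85 in PBS). Their 32 promoter regions had the highest median of any list, 0.12, with none past an unadjusted p of 0.05. Btg2 (0.22 ± 0.20) and Nr4a1 (0.22 ± 0.21) were the highest, and Bdnf (-0.20 ± 0.23) and Arc (-0.073 ± 0.22) the lowest, and Arc had 0.079 without PBS replicate 2. Cell cycle arrest and senescence genes had 0 gained, allowing up to 0.798%, and 2 lost of 376 regions, near Foxo1 (54.8, 29.8 and 17.6 in PBS) and in an intron of Hmgb1 (26.3, 14.1 and 21.3). By gene, promoter effects ran from -0.42 ± 0.25 at Tgfb2 and -0.38 ± 0.27 at Cdkn2a, the gene of the cell cycle inhibitors p16 and p19, to 0.43 ± 0.26 at Ccnd2 and 0.66 ± 0.30 at Igfbp5. A low promoter region of Lmnb1, the lamin B1 gene, had -0.59 ± 0.21 (limma, unadjusted p = 0.0185, adjusted p = 0.839). Genes of the unfolded protein and integrated stress response had 0 gained, allowing up to 2.29%, and 1 lost of 131 regions, at the promoter of Atf6 (22.9, 34.7 and 33.3 in PBS). The same gene had another promoter region with the highest effect of the list by gene (0.29 ± 0.21), with Hsph1 (0.26 ± 0.20), and the lowest were the chaperone gene Hspa1b (-0.27 ± 0.24) and Trib3 (-0.26 ± 0.20). Promoter regions of Atf4, a transcription factor of the integrated stress response (0.58 ± 0.21), and of the chaperone gene Hspa1a (-0.62 ± 0.24) had an unadjusted p of 0.0229 and 0.0286. All of these added promoter regions had an adjusted p of 0.836 or 0.839.

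Interferon and innate immune genes had 0 gained, allowing up to 2.24%, and 3 lost of 134 regions. The lost regions were in an intron of Nfkb1 (14.7, 35.3 and 20.9 in PBS) and between genes near Nfkbia (29.3, 17.9 and 41.0) and Tlr4 (17.9, 40.5 and 41.0). The list had the lowest median of promoter effects, -0.097 over 20 regions. Its most negative promoter was that of Ifih1, a sensor of double-stranded RNA (chr2:62646000-62646233), at 80.1 ± 4.04 in PBS and 56.2 ± 19.4 in PFF+MLi-2 (SD, n = 3). The effect was -0.81 ± 0.30 (SE) with an unadjusted p of 0.025 and an adjusted p of 0.839 (limma). It was -1.12 without PFF+MLi-2 replicate 2 and -0.50 without PFF+MLi-2 replicate 3. Irf7, an interferon regulatory factor, had -0.59 ± 0.27 (adjusted p = 0.866). The highest were Tmem173, which encodes the adaptor STING (0.61 ± 0.45), and Nfkbia (0.072 ± 0.23), which had -0.087 without PBS replicate 1 and -0.032 without PFF+MLi-2 replicate 1. The Tmem173 percentiles were 63.4, 64.9 and 7.59 in PBS and 68.3, 67.7 and 49.8 in PFF+MLi-2, and without PBS replicate 3 its effect was 0.044.

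Markers of the cell types in the cultures were read as the highest promoter peak of each gene. All 8 pan-neuronal markers and all 8 markers of glutamatergic cortical neurons had a promoter peak in all 6 libraries. The median percentile of the pan-neuronal markers was 79.6 to 84.4 in PBS and 85.2 to 89.4 in PFF+MLi-2. That of the 8 neural progenitor markers, all with a peak in every library, was 75.4 to 78.2 in PBS and 66.5 to 73.9 in PFF+MLi-2. The groups did not overlap for either list, which can also arise at random with 3 libraries against 3. The part of these markers in the results above was not tested. Over their shared promoter regions, the median height effect was 0.070 for pan-neuronal (29 regions) and -0.053 for progenitor markers (14 regions). The 8 astrocyte markers also had a peak in every library, with medians of 70.4 to 72.6 in PBS and 61.9 to 73.5 in PFF+MLi-2. Markers of oligodendrocytes had a promoter peak for 5 or 6 of 8 genes and vascular markers for 3 of 8 in each library. Medians of the groups overlapped for glutamatergic markers (52.0 to 61.8 in PBS and 50.2 to 63.4 in PFF+MLi-2). GABAergic interneuron markers overlapped as well (56.9 to 66.1 and 57.9 to 66.5). So did oligodendrocyte markers (70.6 to 73.5 and 71.4 to 78.0) and vascular markers (74.6 to 80.9 and 67.8 to 78.4). Microglial markers had one for 4, 0 and 0 of 8 genes in PBS and for 1, 0 and 3 in PFF+MLi-2. A peak list cannot separate fewer cells of a type from less accessible chromatin in each cell.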

How the data were processed

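Nuclei of primary cortical neurons were profiled by ATAC-seq with paired-end sequencing in 12 libraries, 3 in each of 4 groups, of which the 3 PFF+MLi-2 and 3 PBS libraries were compared here. Groups came from the treatment labels. Per the labels and the study's methods, the authors used Trim Galore 0.6.7 for trimming, Bowtie2 2.5.1 for alignment to GRCm38 and MACS2 2.2.7.1 to call peaks in each library separately. The MACS2 options, removal of duplicates and the Tn5 offset are not given in the sources used here, and each affects peak number, width and height. The deposited narrowPeak lists give each peak's fold enrichment (a ratio), its -log10 p-value, its -log10 q-value, a score and the summit. The deposited score was not used. The fold enrichment deposited by the authors is relative to each library's own background, so ranks within a library were compared. An alternative setting of the height test used log2 fold enrichment centred within each library instead.

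Fold and -log10 p together gave back the tags at each summit (whole within 0.001 for 100% of peaks). A tag is a read or fragment as MACS2 extended it, and total reads were not used here. Relative depth is the most frequent background divided by the smallest peak width. Only chromosomes 1 to 19, X and Y were used. Peaks were annotated with GENCODE vM21, leaving out its unconfirmed TEC genes. Height was tested with limma 3.58.1 in R 4.3.3 on normal scores (Benjamini-Hochberg over 82935 regions, threshold 0.05), after tests on simulated data. Library measures had exact permutation tests, two-sided, adjusted over 5 measures. Other steps used Python 3.11.15, numpy 2.4.6, pandas 2.3.3, scipy 1.17.1 and matplotlib 3.10.9.

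Named were the 10 gained and 10 lost regions of greatest mean percentile, the 6 highest and 6 lowest moderated t, the 5 genes with most gained and with most lost regions, and, for each list, members with a gained or lost region and the 2 highest and 2 lowest promoters. The groups compared, the gene lists and the tests were chosen with earlier results of these data known. Some members that this rule names are not reported here. Alternatives were equal numbers of top peaks, a -log10 q of at least 5, 2 of 3 libraries, a 50 bp merge, regions of all 12 libraries, other scales and ranks, a replicate block and leaving out each library. Intervals cover counting error only.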

Additional observations from a re-analysis of the deposited data

How the results depend on the processing

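The counts of gained and lost regions depended on the processing. Against 486 gained and 1212 lost, an equal number of top peaks gave 778 and 859, a -log10 q of at least 5 gave 379 and 700, and calls in at least 2 of 3 libraries against 0 of 3 gave 3441 and 7976. Merging at 50 bp gave 450 and 1080, and regions of all 12 libraries gave 453 and 1159. With 1 library left out, which shortens the rule, gained regions ran from 752 (without PBS replicate 2) to 2096 (without PBS replicate 1), and lost regions from 1967 (without PBS replicate 1) to 4963 (without PBS replicate 2). Of these 6 settings, gained regions outnumbered lost ones only without PBS replicate 1. With equal numbers of top peaks and 1 library left out, chosen after seeing the data, gained regions numbered 1991, 1666 and 1579 without PBS replicates 1, 2 and 3 and 2101, 2188 and 1988 without PFF+MLi-2 replicates 1, 2 and 3. Lost regions numbered 1991, 2876 and 2331, and 1778, 1715 and 1726. Calls for the shortened group then needed 2 libraries and calls for the other group 3, so the larger side in these counts follows in part from their construction.

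The height rank test called 0 regions at an adjusted p under 0.05 in all 13 alternatives, and between 3623 and 5351 at an unadjusted p under 0.05 (limma). With a replicate block it called 0 after adjustment and 5351 before it, against 4792 without the block. Deviations of equally numbered libraries correlated at 0.075, 0.066 and 0.033, and those of other pairs at -0.068 to 0.0019. Each library thus correlated best with its own number, though weakly. Whether equal numbers mark paired samples cannot be told from these values. The 12 named height regions kept their direction in all 143 values available, which their choice as the most extreme statistics of the same libraries largely fixes. Some of them could not be tested at a mean percentile of at least 50 or with equal numbers of top peaks, where they were not in the tested set.

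Of 670 values for the 52 named promoters, 6 changed sign. With 1 library left out, Arc ran from -0.183 to 0.079 and Grin2a from -0.424 to 0.041, both turning without PBS replicate 2. Nfkbia ran from -0.087 (without PBS replicate 1) to 0.193 and was also negative without PFF+MLi-2 replicate 1. Slc32a1 ran from -0.0062 (without PFF+MLi-2 replicate 3) to 0.517 and Atp6v1h from -0.085 (without PBS replicate 1) to 0.415. Tmem173 kept its sign but ran from 0.044 (without PBS replicate 3) to 1.003. Ifih1 ran from -1.12 to -0.50, without PFF+MLi-2 replicates 2 and 3. Leaving out each library moved the difference in peaks, PFF+MLi-2 minus PBS, from -20082 to 1706. It moved the covered length from -3.59 to 0.592 Mb, the median width from -0.17 to 3.33 bp and the promoter share from -0.109 to 1.87 percentage points. The sign turned without PBS replicate 1, or without PBS replicate 3 for the width. Summits of gained and lost regions held about 13 tags, close to the 8 or 9 of the smallest peaks called. The part of sequencing depth in these results was not tested.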
